A study of Mus musculus with 22 samples.

Results

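Chromatin accessibility was profiled by ATAC-seq, in which a transposase cuts and tags open DNA, in adipocyte nuclei of mouse epididymal fat. The 22 deposited peak lists, 1 per animal, were merged into regions wherever peaks overlapped by 1 bp or more. Promoter regions open in all libraries are the regions on chromosomes 1 to 19 that overlapped the window of 2000 bp on each side of a GENCODE vM21 transcription start site, were 10 kb wide or less and held a peak in each of the 22 libraries. There were 3170 such regions among 102995 on these chromosomes and 104657 with chromosomes X and Y. The presence of a peak chose the regions, so their presence in every library is not a result, and a region whose peak was lost in any animal could not be among them.

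All animals carried AdipoERCre x NuTRAP, labelled as a C576BL6 background, and all received tamoxifen, which activates the Cre recombinase so that adipocyte nuclei are tagged with biotin. The short arm held C (n = 3, chow, 18 weeks old), H (n = 3, high-fat diet for 12 weeks, 18 weeks old), CC_s (n = 3, chow, 26 weeks old) and HC (n = 3, high-fat diet for 12 weeks followed by chow for 8 weeks, 26 weeks old). The long arm held CC_l (n = 2, chow, 31 weeks old), HH (n = 3, high-fat diet for 25 weeks, 31 weeks old), CCC (n = 2, chow, 39 weeks old) and HHC (n = 3, high-fat diet for 25 weeks followed by chow for 8 weeks, 39 weeks old). The study's methods name another chow for the last 8 weeks, given to CC_s and CCC as well, so age and chow cannot be told apart between the control groups, and the 2 arms coincide with 2 series of libraries. Nuclei were tagged only where the adipocyte Cre had acted. The promoters of all 12 adipocyte markers lay in regions of any width open in every library, against 3 of 12 macrophage, 2 of 12 endothelial, 4 of 12 progenitor and 3 of 12 mesothelial markers. Lymphocyte markers stood at 2 of 12, genes of tissues other than fat at 4 of 18, and all protein-coding genes at 51.9%.

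A promoter is the stretch of DNA around a transcription start site where RNA polymerase II and the general factors assemble. Promoters of genes that most cells use are typically rich in CpG dinucleotides, are kept free of nucleosomes just upstream of the start site and are bound by widely expressed factors such as SP/KLF, ETS, NRF1 and NF-Y. Genes that define a cell type are more often driven by broad domains of open chromatin with many enhancers, as at the adipocyte genes of fat cells.

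The files give 2 values for each peak, the total signal, which is the coverage summed over its bases, and the maximum signal, which is the highest coverage at any base. No normalization of them is stated, so each library was mapped to a common scale by rank, and a log2 level below is the rank-mapped total signal of a region unless the maximum signal is named. Regions under the 30083 strongest of a library sit at a floor of 14.01 on that scale. HC 3 and HHC 3 stood apart from the other libraries: their strongest 4 promoter regions held 22.2% and 21.2% of the library's total signal, against 3.72% to 15.9% in the other 20 libraries, and 133 and 156 of the 3170 regions lay at the floor there, against at most 21 elsewhere.

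The sequences below show the kinds of DNA that these regions hold. The first pair comes from the regions of highest signal, 75 bases on each side of the median point of highest signal, on the forward strand of GRCm38, with capitals for bases in words of 31 bases that also occur in the mouse mitochondrial genome. The window at Gm10800 (chr2:98667068-98667218) had 0 such bases, and the window at Gm10222 (chr1:24612653-24612803) had 151.
Gm10800: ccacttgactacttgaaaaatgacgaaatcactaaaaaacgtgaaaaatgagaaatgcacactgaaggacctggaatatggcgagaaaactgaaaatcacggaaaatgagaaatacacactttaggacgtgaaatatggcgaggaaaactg
Gm10222: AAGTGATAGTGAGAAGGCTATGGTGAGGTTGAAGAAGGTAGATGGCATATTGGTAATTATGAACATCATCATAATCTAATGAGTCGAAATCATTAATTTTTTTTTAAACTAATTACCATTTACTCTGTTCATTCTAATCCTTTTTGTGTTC
The next 3 are RefSeq promoter windows (GRCm38.p6, 250 bases before to 50 after the start site, gene strand) of regions that differed between diets, with matches to the motifs searched in capitals. Jmy (chr13:93499759-93500058, minus strand) held SP/KLF and USF E-box matches with a CpG content of 0.969 observed to expected. Crlf2 (chr5:109558944-109559243, minus strand) held SP/KLF matches with 0.808, and Lrtm1 (chr14:29017958-29018257, plus strand) held an AP-1 match with 0.22.
Jmy: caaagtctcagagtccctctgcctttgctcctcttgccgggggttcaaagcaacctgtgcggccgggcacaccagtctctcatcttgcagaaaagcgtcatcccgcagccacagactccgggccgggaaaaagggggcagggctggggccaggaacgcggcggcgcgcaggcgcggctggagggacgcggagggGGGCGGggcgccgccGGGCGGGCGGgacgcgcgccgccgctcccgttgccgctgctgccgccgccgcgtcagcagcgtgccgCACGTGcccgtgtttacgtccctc
Crlf2: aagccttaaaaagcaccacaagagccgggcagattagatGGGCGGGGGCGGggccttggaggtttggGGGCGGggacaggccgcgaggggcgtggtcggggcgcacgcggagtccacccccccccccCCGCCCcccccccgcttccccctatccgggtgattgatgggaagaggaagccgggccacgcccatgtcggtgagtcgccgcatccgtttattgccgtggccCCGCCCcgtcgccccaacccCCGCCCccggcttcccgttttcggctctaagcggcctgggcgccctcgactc
Lrtm1: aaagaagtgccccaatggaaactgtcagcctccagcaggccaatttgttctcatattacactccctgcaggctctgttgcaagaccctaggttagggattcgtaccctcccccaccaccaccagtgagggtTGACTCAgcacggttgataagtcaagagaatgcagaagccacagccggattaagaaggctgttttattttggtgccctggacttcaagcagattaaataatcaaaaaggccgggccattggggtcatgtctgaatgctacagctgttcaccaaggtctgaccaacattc

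Promoter regions fell at the ends of the range of occupancy. Of the promoter regions of 10 kb or less, 5358 had a peak in 1 library and 3170 in all 22, whereas each number of libraries from 6 to 18 held 196 to 313 regions. A further 756 regions had a peak in 21 libraries. HHC 3 was the only library without a peak at 341 of these and HC 3 at 207.

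**Figure D1:**
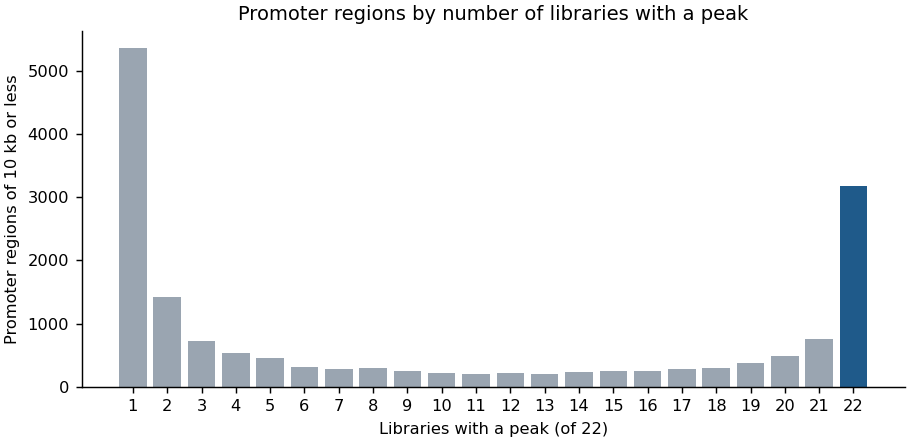
Number of promoter regions of 10 kb or less (vertical axis) by the number of the 22 libraries in which they had a peak (horizontal axis). The bar at 22 (dark) is the 3170 regions described here, and the bar at 1 holds 5358.

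The width limit decided which genes were represented. Another 5551 promoter regions with a peak in every library were wider than 10 kb, with a median of 22684 bp against 6378 bp, and 8721 regions would have been kept with no limit. The widest 3 regions inside the limit were those of Gm49326 (9999 bp), Prkca (9998 bp) and Sirt1 (9998 bp). The narrowest 3 outside it were those of Cd55 (10001 bp), Snhg8 (10002 bp) and Ppm1b (10002 bp). Mean log2 levels were 16.40, 15.78 and 15.60 inside and 16.61, 17.59 and 17.65 outside.

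The 3170 regions held start sites of 4465 genes. Of 20807 protein-coding genes on these chromosomes, 3248 (15.6%) had one, against 5.11% of lincRNA genes, 6.52% of antisense genes and 2.01% of processed pseudogenes. A protein-coding start site was present in 2798 regions, 450 regions held 2 or more such genes, and 372 held none. Of the regions with a protein-coding start site, 307 (11%) held a divergent pair, meaning start sites on opposite strands within 1000 bp. That share was 11% in the wider regions and 1.12% in promoter regions with a peak in 1 to 21 libraries.

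The point of highest signal lay close to a start site. Over regions and libraries its median distance from the nearest one was 79 bp, and it lay within 500 bp in 84.6% of cases, against 177 bp and 60.3% in the wider regions. The rule ties each region to a start site window and limits its width, so this closeness and the contrast with wider regions are partly set by it. The median distance was 72 to 97 bp in the separate libraries. The interquartile range of its position over the 22 libraries was under 100 bp in 80.0% of the regions. In 225 regions, however, the median point of highest signal was more than 2000 bp from any start site, so that the strongest signal there was not at the promoter that gave the region its name.

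Genes of general cell machinery were present in these regions, but more of them lay in the wider class. Beside 15.6% of all protein-coding genes, the share of genes with a region was 14 of 39 (35.9%) for the core spliceosome, 11 of 43 (25.6%) for translation initiation and elongation, 9 of 36 (25.0%) for chromatin regulators, 13 of 59 (22%) for RNA polymerase II, its general factors and Mediator, 15 of 71 (21.1%) for oxidative phosphorylation, 6 of 31 (19.4%) for the proteasome and 6 of 35 (17.1%) for the unfolded protein and heat shock response. With no limit on width these counts became 37, 40, 32, 48, 71, 29 and 35, beside 51.9% of all protein-coding genes. The cytosolic ribosome, also general machinery, had only 1 of 75 genes (1.33%) in a region, and 75 with no limit on width. These lists were chosen with results of the data known, so the counts are descriptions.

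The strongest members of each list were as follows, with the mean log2 level ± SD over all 22 libraries. Snrpa, a protein of the U1 small nuclear ribonucleoprotein, stood at 17.21 ± 0.20, and Cdc5l, a splicing factor, at 16.39 ± 0.24. Eif2s1, the alpha subunit of initiation factor eIF2, stood at 17.08 ± 0.17 and shared its region with Atp6v1d, a subunit of the lysosomal proton pump. Eif3d, a subunit of eIF3, stood at 16.43 ± 0.25. These regions, the strongest of their lists, varied less than the median region of the whole set, whose SD over the 22 libraries was 0.31. Over the whole lists the median SD was 0.292 for the spliceosome (0.163 to 0.553) and 0.25 for translation (0.174 to 0.388).
Among chromatin regulators, Eed, the subunit of Polycomb repressive complex 2 that reads its own mark, stood at 16.89 ± 0.16, and Kmt2c, a histone H3 lysine 4 methyltransferase, at 16.59 ± 0.20. Gtf2e1, a subunit of TFIIE, stood at 16.73 ± 0.19, and Ccnc, the cyclin of the Mediator kinase module, at 16.21 ± 0.34. Of the respiratory chain, Ndufb5 and Ndufa4 stood at 17.17 ± 0.20 and 16.83 ± 0.28. Each of these lists also had members below the whole set's median level of 15.81.
Psma5 and Psmd14, subunits of the proteasome, stood at 16.56 ± 0.25 and 15.96 ± 0.19. Hsp90b1, the HSP90 chaperone of the endoplasmic reticulum, stood at 17.79 ± 0.24, and Hsph1, an HSP110 chaperone, at 17.06 ± 0.17. Hsp90b1 had the highest level of all list genes with a region.

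The other lists, of cell-type and signal-responsive genes, the lysosome and the cytosolic ribosome, ran from 0 to 16.7% of their genes. This stood beside 15.6% of all protein-coding genes, and many of their other genes lay in wider regions. None of 36 adipocyte genes had a region of 10 kb or less, Adipoq, Lep and Retn among them, and all 36 lay in wider regions open in every library. Of 75 cytosolic ribosomal protein genes only Rps29 had one (17.49 ± 0.28), and the other 74, Rpl3, Rpl4 and Rpl5 among them, lay in wider regions. Immediate early genes had 2 of 28, Nr4a3 (17.42 ± 0.26) and Egr2 (16.30 ± 0.27), both transcription factors induced by stimuli, and 24 lay in wider regions.
Inflammatory genes had 4 of 36, led by the Toll-like receptors Tlr4 (16.44 ± 0.27) and Tlr2 (16.37 ± 0.19) and completed by Nfkb1 and Cxcl2. Icam1, Vcam1 and Ccl2 are examples without one. Of the list, 19 genes lay in wider regions open in every library, and 10 had only regions with a peak in 1 to 21 libraries. The TGF-beta and extracellular matrix list had 3 of 39, Lox (16.33 ± 0.25), Tgfbr1 (16.08 ± 0.23) and Col1a2. The lysosome list had 5 of 37 (13.5%), led by Atp6v1a (17.29 ± 0.16), and the circadian clock list 4 of 24 (16.7%), led by Btrc (16.17 ± 0.19) and Rora (15.24 ± 0.58).
Among cell-type markers, 0 of 12 adipocyte, macrophage, endothelial, progenitor and mesothelial genes each had a region of 10 kb or less open in every library. Of 12 lymphocyte markers Lck had one (14.85 ± 0.45), and of 18 genes of tissues other than fat Nanog had one (16.11 ± 0.36). A start site window of 2000 bp can take in a neighbouring gene's promoter, so a gene that names a region need not be the one it serves.

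**Figure D2:**
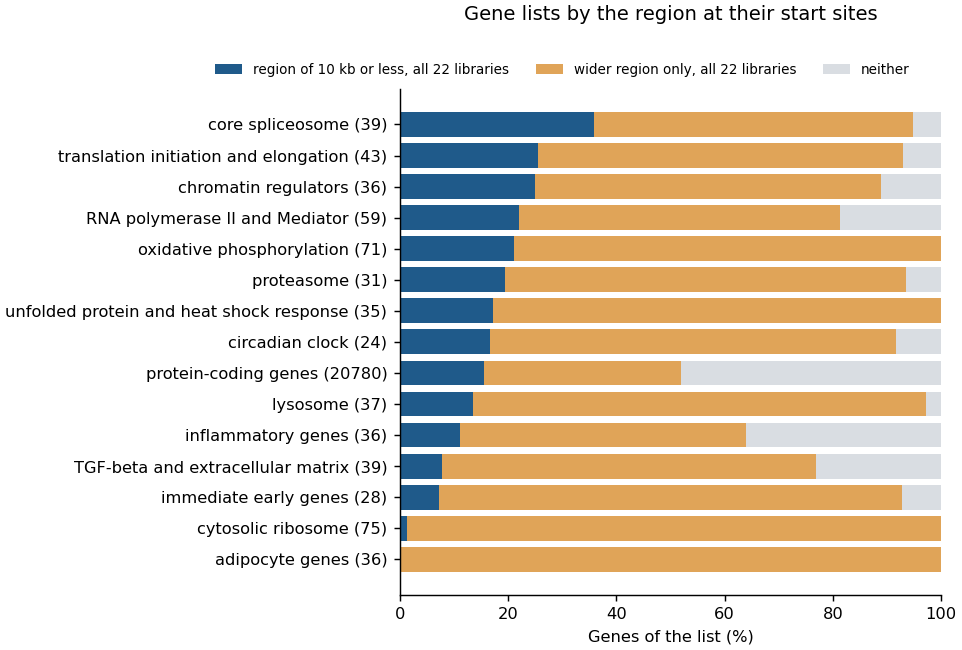
Share of the annotated genes of each list (horizontal axis, percent; number of genes in brackets) with a region of 10 kb or less open in all 22 libraries, with only a wider region open in all 22 libraries, or with neither. The core spliceosome has the largest share in the first class (35.9%) and adipocyte genes have 0.

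Of 10 genes looked up, Adipoq and genes that the study's text names, none had a region of this kind. Other genes named in that text were not looked up. Gpam, Cyp2e1, Acacb, Icam1, Ctsd and Adipoq lay in regions wider than 10 kb, from 20480 bp at Icam1 to 188152 bp at Adipoq. The region at Runx2 was 7824 bp wide with a peak in 20 libraries, and that at Tyrobp had a peak in 3. Lyz2 lay in a region wider than 10 kb with a peak in 13 libraries. Maob is on chromosome X, where its region of 8311 bp had a peak in all 22.

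Gene families, chosen here by symbol after their counts had been seen, differed widely. Of 34 tRNA synthetase genes 23 (67.6%) had a region, as did 9 of 19 centromere protein genes (47.4%), 178 of 385 Zfp zinc finger genes (46.2%), 10 of 22 genes of intraflagellar transport and Bardet-Biedl syndrome (45.5%), 33 of 78 mitochondrial ribosomal protein genes (42.3%) and 20 of 51 DEAD and DEAH box helicases (39.2%). Solute carriers were at 40 of 358 (11.2%), potassium channels at 2 of 92 (2.17%) and olfactory receptors at 4 of 1127 (0.355%). Keratins were at 0 of 53, and Hox cluster genes, at 0 of 39, had 26 in wider regions. The Zfp genes had 96 in wider regions, fewer than here, whereas solute carriers had 139 there.

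The DNA at these start sites was rich in CpG. RefSeq promoter windows were matched by position, and 3350 windows of 2935 gene symbols, in 2369 of the 3170 regions, had their start site inside a region. Their median ratio of observed to expected CpG was 0.782, against 0.708 for 9295 windows in the wider regions, 0.437 for 4686 windows in promoter regions with a peak in 1 to 21 libraries and 0.202 for 11310 windows outside any region. The ratio was above 0.6 in 75% of the windows, against 36.4% of all 31396.

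Motifs were searched as exact letters on both strands of the same windows. GGGCGG, bound by SP/KLF factors, was present in 62.3% of the windows in these regions, against 57.3% in wider regions and 36.0% of all windows. CCGGAAG, an ETS motif, was present in 21.7%, against 15.1% and 9.0%. CCAATCA, bound by NF-Y, was present in 13.7%, against 9.19% and 7.69%.
The NRF1 word GCATGCGC was found in 6.45% of the windows, against 4.45% in wider regions and 2.70% of all. The CRE word TGACGTCA was found in 4.33%, against 2.34% and 1.83%, and the ZBTB33 word TCTCGCGAG in 1.52%, against 1.23% and 0.643%. The YY1 word AAGATGGCG was found in 2.54% of the windows in both classes and in 1.39% of all. The shares of SP/KLF, ETS, NF-Y, NRF1, CRE, ZBTB33 and ZNF143 matches were thus above those of both comparison sets, as a description with no test.
The USF E-box CACGTG stood at 9.13% against 9.40%, the ZNF143 word ACTACAATT at 0.955% against 0.667% and 0.408% of all windows, and the C/EBP word TTGCGCAA at 0.328% against 0.334%. The AP-1 word TGACTCA was present in 2.42%, against 4.24% in wider regions and 5.26% of all windows. TATAAA within 40 to 15 bases before the start site, on the gene strand, was present in 0.866%, against 1.18% and 2.02%. The words of ZBTB33, CRE, NRF1, ETS, SP/KLF, YY1, USF and C/EBP hold CG and those of NF-Y, ZNF143, AP-1 and TATA do not, and the windows differ in CpG content as given above. No word contains another, and a match is a description of letters, not of a bound site.

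**Figure D3:**
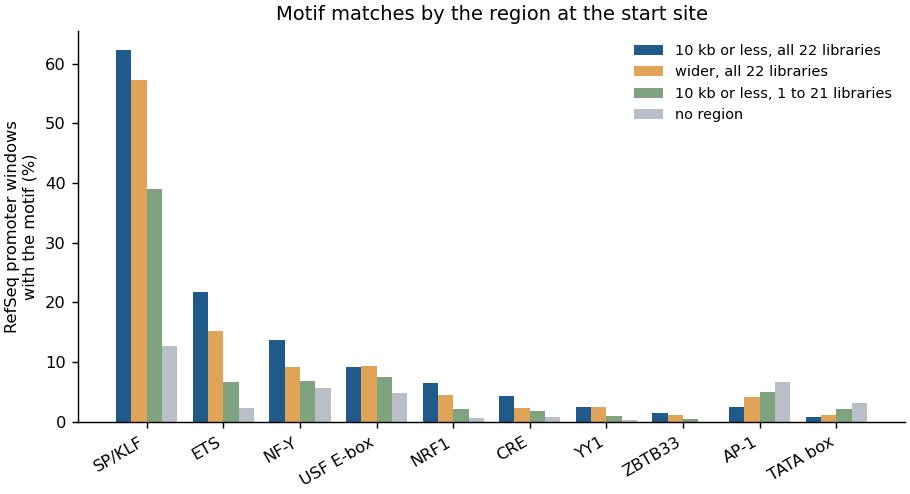
Share of RefSeq promoter windows (vertical axis, percent) that hold each motif, for start sites in the 3170 regions, in wider regions open in all libraries, in promoter regions open in 1 to 21 libraries and in no region. SP/KLF matches fall from 62.3% to 12.6% across these classes, whereas AP-1 matches rise from 2.42% to 6.61%.

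The same pattern was present where the signal peaked. Within 100 bases of the median point of highest signal, CpG was above 0.6 in 73.2% of the 3170 regions, 54.5% of wider regions and 10.2% of 1553 distal regions of 10 kb or less that were also open in every library. ETS matches were at 17.8%, 11.6% and 2.00%, and NF-Y matches at 12.8%, 9.12% and 3.93%. AP-1 matches ran the other way, at 2.52%, 4.11% and 8.31%. The 405 regions with an NF-Y match had a median maximum signal of 7.13 on the log2 scale and a median SD over libraries of 0.27, against 6.72 and 0.32 in the 2765 without. The 2320 CpG-rich regions had a median SD of 0.29, against 0.36 in the other 850.

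The regions of highest signal were not ordinary promoters. The region at Gm10800 and Gm10801 (chr2:98661500-98668353) had the highest level of the 3170 regions in every library, at a log2 level of 27.51, and that at Gm21738 (chr14:19415199-19419726) stood at 25.03 in every library. Since both kept 1 rank, their SD is 0 by the way the scale is made, and they are also the regions of smallest SD. Soft-masked repeats made up 45.0% and 84.8% of their bases, against a median of 21.8%.
The third, at AY036118, Gm26917 and Gm42418 (chr17:39841547-39849617), predicted genes over a copy of ribosomal RNA sequence, stood at 23.28 ± 0.52. The fourth, at Gm10222 and Gm28437 (chr1:24611169-24616589), stood at 22.59 ± 0.85, and 84.7% of its 31-base words also occur in the mitochondrial genome. Ppp2r3d (chr9:124422447-124428325) stood at 18.62 ± 0.33, with 9.49% of its bases masked and 0% of its words in the mitochondrial genome. Gm13339 to Gm13341 (chr2:22586450-22590841), where 36.3% of the words occur in the mitochondrial genome, stood at 18.56 ± 1.23. These last predicted genes thus had the largest SD of all 3170 regions.
The study's methods describe a step that filtered peaks in blacklisted regions, and the first 4 regions were present in all of the lists used here. They held 3.72% to 22.2% of a library's signal, while the others together held 5.12% to 7.72%.

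Apart from these, the least variable region was that of Pcgf1, a subunit of a Polycomb repressive complex 1 variant, with a mean of 16.84 ± 0.10 over the 22 libraries. Its lowest value was 16.58 in H 3 and its highest 17.01 in C 2. The age-matched groups C and H had means of 16.89 ± 0.10 and 16.71 ± 0.12. Gm13339 (1.23), Vmn1r238 (1.1), a vomeronasal receptor gene, and Gm5626 (1.06) had the largest SDs. At Vmn1r238 and Gm5626 the point of highest signal lay 5404 and 2976 bp from the nearest start site, and 23.4% and 32.9% of the 31-base words were repeats of another word of the same region.

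The level of the set as a whole differed little in size between groups. The median log2 level over the 3170 regions was 15.87 ± 0.06 in C (SD, n = 3), 15.77 ± 0.03 in H (n = 3), 15.79 ± 0.11 in CC_s (n = 3) and 15.89 ± 0.11 in HC (n = 3). The long arm stood at 15.88 ± 0.02 (n = 2) for CC_l and 15.84 ± 0.11 (n = 3) for HH, then 15.81 ± 0.03 (n = 2) for CCC and 15.91 ± 0.05 (n = 3) for HHC. The 3 H libraries (15.74 to 15.80) lay below the 3 C libraries (15.81 to 15.92) on this scale. With libraries centred on the median of regions open in all of them, H (-0.65, -0.66 and -0.68) lay inside the range of C (-0.61, -0.67 and -0.73). By rank, the single libraries ran from 15.72 in CC_s 3 to 16.02 in HC 3, with the values of HH 1 (15.97) and HHC 3 (15.96) next to the highest. The median of the maximum signal was 6.76 ± 0.03 in C, 6.82 ± 0.05 in H, 6.76 ± 0.05 in CC_s and 6.85 ± 0.08 in HC. It was 6.79 ± 0.01 in CC_l, 6.81 ± 0.13 in HH, 6.75 in both CCC libraries and 6.88 ± 0.09 in HHC, whose 3 libraries (6.83 to 6.98) lay above CCC.
The shape of the peaks differed more. The bases covered by a peak in the median region were 3252 ± 188 bp in C and 3160 ± 115 bp in H, but 1909 bp in HC 3, 2126 bp in HHC 3 and 2166 bp in HH 1. The maximum signal exceeded the mean signal of the same region 6.79 ± 0.31 times in C and 5.39 ± 0.29 times in H at the median, and the values of the 3 C libraries (6.51 to 7.12) and the 3 H libraries (5.06 to 5.62) did not overlap. In the other pairs the groups overlapped, HH (3.96, 5.47 and 5.08) with CC_l (5.06 and 6.13), HC (6.51, 5.51 and 3.59) with CC_s (5.74, 6.53 and 5.97), and HHC (4.46, 6.64 and 3.46) with CCC (5.68 and 4.17). Distal regions open in every library stood at 6.16 to 7.02 in C and 4.74 to 5.38 in H. In HC 3 and HHC 3 these distal regions stood at 3.24 and 3.10, below the 3.59 and 3.46 of the 3170 promoter regions. Among all peaks of a library, the median of the maximum signal was 6.82 to 8.92 times its lowest value in C, 4.70 to 6.40 times in H, 2.43 times in HC 3 and 2.25 times in HHC 3, and its part in the ratio was not tested.

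**Figure D4:**
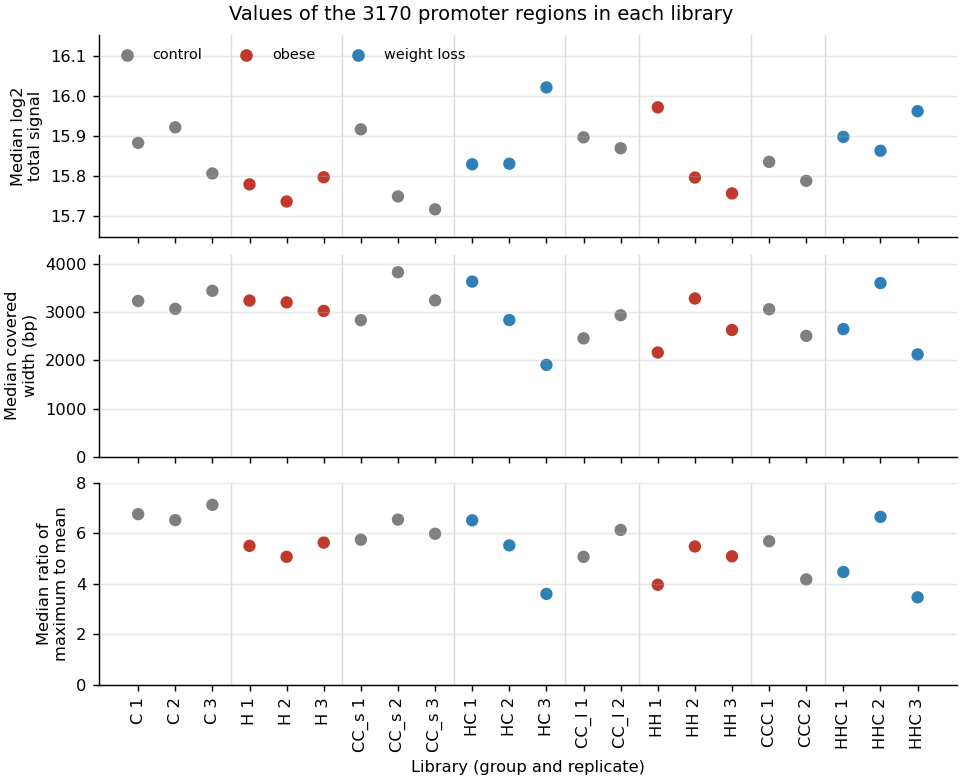
Medians over the 3170 regions in each of the 22 libraries (horizontal axis): rank-mapped log2 total signal (top), bases covered by peaks (middle) and the ratio of maximum to mean signal (bottom), with control, obese and weight loss groups in colour. HC 3, HH 1 and HHC 3 are the highest in the top panel and the lowest in the middle panel.

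The group means of single regions lay closer together than in the other classes. The range of the 8 group means had a median of 0.605 on the log2 scale over the 3170 regions, against 0.68 in the wider regions and 0.85 in the distal ones, and it exceeded 1 in 402 regions (12.7%), against 22.8% and 33.7%.

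The age-matched comparison of H with C asks how 12 weeks of high-fat diet changed accessibility. All regions of the series above the floor in at least 3 libraries were fitted with limma, and the 3170 regions, all of which passed that filter, were counted afterwards. At an adjusted p under 0.05 and a log2 fold change above 1 in size, 57 of them differed (1.80%), 18 higher and 39 lower in H, beside 8.28% of all 30840 regions tested (4.93% higher and 3.36% lower). At any fold 156 differed, beside 16.8% of all regions. The rule required a peak in every library, which regions outside the set did not have to hold, so nothing is read from the lower share.
The direction of these counts depended on the scale. With libraries centred on the median of regions open in all of them instead of rank-mapped, 33 of the 2951 tested differed, 23 of them higher in H, beside 5.94% of all 18461 regions tested on that scale (4.14% higher and 1.8% lower). The median log2 fold change was -0.02 instead of -0.12. At any fold the number higher was 54 of 156 by rank and 113 of 208 when centred, beside 18.9% of all regions at any fold when centred. The count also rested on single libraries, since it was 1 without C 2, 13 without C 1, 16 without H 1 and 15 without H 2.

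Over both durations, with H and HH against C and CC_l and the duration as a term, 23 of the 3170 regions differed (0.726%), 8 higher and 15 lower in obesity, beside 6.16% of all 30407 regions (3.58% higher and 2.58% lower). At any fold 298 differed, beside 22.6%. Leaving out single libraries gave 20 to 33, and 21 of the 23 were also among the 57 of H against C, with which they share libraries. When centred, 13 differed, 5 of them higher, beside 3.83% of all regions. At any fold 174 of 317 were then higher, beside 23.6% of all regions that passed, against 107 of 298 by rank.

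Regions that differed had their strongest signal near a start site less often than the whole set, as a description with no test. The point of highest signal lay within 500 bp of a start site in 35 of the 57 (61.4%) and in 11 of the 23 (47.8%), against 85.5% of the 3170 by their median point. Of the 225 regions with that point more than 2000 bp away, 6.22% differed between H and C, against 1.29% of the 2709 within 500 bp. CpG at the point of highest signal was above 0.6 in 45.6% of the 57 and 34.8% of the 23, against 73.2%.
The covered bases moved with every call. They were higher in H at all 18 regions called higher and lower at all 39 called lower, with median log2 ratios of 0.74 and -1.10. The maximum signal moved the same way in 18 of 18 and 36 of 39, and passed an adjusted p under 0.05 in limma in 10 and 11 of them. The mean signal over the covered bases moved the same way in 16 of 18 and in 20 of 39, and passed in 5 and 3. A call in total signal thus held both regions whose maximum signal passed and regions where the covered bases differed and the maximum did not pass.

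At a first group of regions the maximum signal changed with the total. Crlf2, a subunit of the receptor for the cytokine TSLP, had a region (chr5:109554815-109562097) with log2 levels of 16.89, 16.58 and 16.52 in C and 18.10, 17.92 and 18.17 in H. All H values were above all C values, by 1.40 ± 0.15 (SE, limma, adjusted p = 0.00405), and by 1.49 in the maximum signal. In the long arm CC_l stood at 17.78 and 17.66 and HH at 18.11, 17.81 and 18.47, a difference of 0.41 ± 0.21 (limma, adjusted p = 0.462). After weight loss HC stood at 17.95, 17.72 and 18.01 and CC_s at 17.98, 16.68 and 16.82, with CC_s 1 inside the HC range. HHC (17.52, 17.71 and 17.80) lay above CCC (16.78 and 16.69). This difference, 0.94 ± 0.22, had the smallest p of the 3170 regions in that pair and an adjusted p of 0.753 in limma. Weight loss over both durations was 0.82 ± 0.21 at Crlf2 (limma, adjusted p = 0.0718), 0.94 with array weights (limma, adjusted p = 0.00146) and 0.15 in the mean signal (limma, adjusted p = 0.797). The point of highest signal lay 1347 bp from the nearest start site.
Ptchd4, a patched-domain protein, stood at 14.80, 15.06 and 15.35 in C and at 16.26, 16.71 and 16.94 in H (chr17:42313372-42319542). The difference was 1.56 ± 0.25 (limma, adjusted p = 0.00938) in total and 1.84 in maximum signal. Over both durations it was 1.20 ± 0.23 (limma, adjusted p = 0.00374), although CC_l 2 (16.40) lay above H 1 (16.26) and close to HH 2 (16.40). HC (16.50, 16.69 and 16.08) overlapped with CC_s (16.44, 15.29 and 15.54), and HHC (15.68, 15.83 and 15.53) with CCC (15.79 and 15.30). HC against CC_s was 0.67 ± 0.36 at Ptchd4 (limma, adjusted p = 0.491), 1.03 with array weights (limma, adjusted p = 0.0061) and -0.08 in the mean signal (limma, adjusted p = 0.932).
Gm37167, a predicted gene, stood at 14.78, 14.58 and 14.23 in C and 14.56 and 15.17 in CC_l, and at 15.83, 15.63 and 15.80 in H and 16.40, 15.65 and 15.83 in HH (chr9:32833643-32839084). All 6 obese libraries were above all 5 controls, by 1.17 ± 0.20 (limma, adjusted p = 0.00228) and by 1.12 in the maximum signal, but by 0.89 when centred and 0.79 in the mean signal, both under the fold limit. HC stood at 15.80, 15.75 and 15.37 against 15.02, 14.57 and 14.31 in CC_s, without overlap, at 1.01 ± 0.36 (limma, adjusted p = 0.324). HHC (15.27, 15.05 and 14.03) overlapped with CCC (14.57 and 14.89), at 0.05 ± 0.52 (limma, adjusted p = 0.98). With array weights HC against CC_s was 1.36 at Gm37167 (limma, adjusted p = 0.00289), and when centred 0.72 (limma, adjusted p = 0.105). The point of highest signal was 4060 bp from a start site.
Lrtm1, a leucine-rich repeat membrane protein, stood at 16.24, 15.75 and 15.99 in C and 14.10, 14.64 and 14.56 in H (chr14:29013535-29021443), a difference of -1.56 ± 0.26 (limma, adjusted p = 0.0104) and -1.06 in the maximum signal. The call at Lrtm1 was lost when centred, at -0.96 (limma, adjusted p = 0.013), and in the mean signal, at -0.56 (limma, adjusted p = 0.0705). CC_s, the older control, stood at 14.89, 15.33 and 15.16, below all 3 C libraries and above all 3 H libraries. Aass, the bifunctional enzyme of lysine degradation, stood at 14.73, 14.43 and 14.28 in C and at 16.29, 16.40 and 16.14 in H (chr6:23126183-23135654). Its difference was 1.79 ± 0.23 (limma, adjusted p = 0.00586), with 2.06 in the maximum signal and 0.57 in the mean signal (limma, adjusted p = 0.113), and its point of highest signal lay 3568 bp from the start site. In the long arm Aass stood at 15.38 and 15.44 in CC_l and 15.54, 15.66 and 16.23 in HH, a difference of 0.40 ± 0.32 (limma, adjusted p = 0.597). The long minus the short effect was -1.39 ± 0.37 (limma, adjusted p = 0.687), and obesity over both durations 1.18 ± 0.26 (limma, adjusted p = 0.00804), or 0.95 when centred, under the fold limit. HHC (14.74, 15.50 and 16.26) lay above CCC (14.22 and 14.07), at 1.35 ± 0.58 (limma, adjusted p = 0.805), and HC (15.73, 15.84 and 14.95) overlapped with CC_s (15.79, 14.79 and 14.61). Weight loss over both durations was 0.85 ± 0.36 at Aass (limma, adjusted p = 0.232), 1.02 with array weights (limma, adjusted p = 0.00672) and 0.49 when centred (limma, adjusted p = 0.25).

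At a second group the total changed with the covered bases, and the maximum signal did not pass except at AC127690.1. Npas2, a paralogue of the clock activator CLOCK, was the clock gene that differed (chr1:39189784-39198026). It stood at 15.73, 15.99 and 16.06 in C and 14.59, 14.46 and 14.55 in H, and at 15.64 and 16.44 in CC_l and 14.56, 14.41 and 14.52 in HH. The 6 obese values were all below the 5 controls, at -1.46 ± 0.19 (limma, adjusted p = 0.000407). When centred the difference at Npas2 was -0.97, under the fold limit (limma, adjusted p = 0.00072), and it was no longer called.
Its maximum signal differed at -0.50 (limma, adjusted p = 0.104), and its mean signal by 0.08. The covered bases were 5875, 4340 and 3022 in C and 1356, 1631 and 1473 in H. The older controls CC_s (14.65, 15.29 and 14.53) and CCC (14.75 and 15.55) were below all values of C and CC_l as well, and CC_s overlapped with HC (14.65, 15.93 and 15.59).
Jmy, a p53 cofactor that also nucleates actin filaments, stood at 16.14, 16.08 and 15.81 in C and 14.17, 14.02 and 14.76 in H, and at 15.81 and 16.11 in CC_l and 14.23, 14.72 and 14.57 in HH (chr13:93496559-93501374). The difference over both durations was -1.59 ± 0.20 (limma, adjusted p = 0.000378), with -0.44 in the maximum signal and 0.26 in the mean signal. When centred it was -0.97 (limma, adjusted p = 0.000197), which also ended the call. HC 1 and HC 2 at 15.47 and 15.90 lay above all obese values of Jmy, as did HHC 2 and HHC 3 at 15.88 and 16.06, while HC 3 at 14.41 and HHC 1 at 14.74 lay within their range. HC against CC_s was -0.46 ± 0.43 (limma, adjusted p = 0.682), and -0.04 without HC 3 and HHC 3. The start site of Jmy lay 104 bp from the point of highest signal, inside the window printed above.
A630001G21Rik stood at 14.17, 14.41 and 14.22 in C and 14.18 and 14.38 in CC_l, and at 16.14, 16.30 and 15.81 in H and 15.77, 15.69 and 15.75 in HH (chr1:85731581-85738724). The difference was 1.66 ± 0.18 (limma, adjusted p = 0.000138), but 0.44 in the maximum signal (limma, adjusted p = 0.117) and 0.15 in the mean signal (limma, adjusted p = 0.631). When centred it was 0.98 (limma, adjusted p = 0.000381), under the fold limit, and not called. HC (14.59, 14.84 and 14.53) was near the controls, and HHC ran from 14.21 to 15.58.
Nedd1, which recruits gamma-tubulin to centrosomes, was higher in obesity by 1.06 ± 0.15 (limma, adjusted p = 0.000583) and Trio by 1.24 ± 0.20 (limma, adjusted p = 0.0015). Their maximum signals differed by 0.13 and 0.26 only. Weight loss over both durations was 0.94 ± 0.30 at Nedd1 (limma, adjusted p = 0.128) and 0.41 ± 0.42 at Trio (limma, adjusted p = 0.62). AC127690.1 was lower in obesity, at -1.22 ± 0.18 (limma, adjusted p = 0.00101), with -0.59 in the maximum signal (limma, adjusted p = 0.0461). Wac, an adaptor of histone H2B ubiquitination that shares its region with AC130718.2, was lower in H than in C, at -1.51 ± 0.24 (limma, adjusted p = 0.0095). Under the mean signal the signs of Npas2, Jmy, Wac, Nedd1, Trio and AC127690.1 were turned, and none of these 6 passed.

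**Figure D5:**
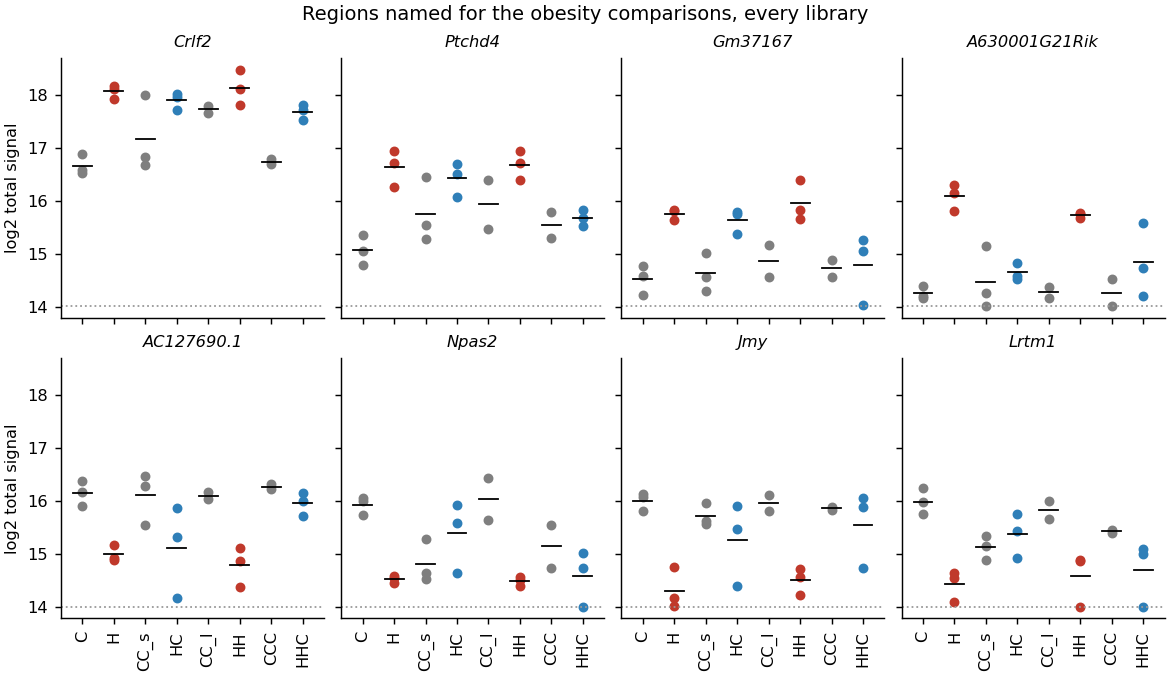
Rank-mapped log2 total signal of 8 named regions (vertical axis) in every library of the 8 groups (horizontal axis); points are libraries, black lines group means, and the dotted line is the floor at 14.01. H and HH (red) lie above C and CC_l in the upper row except at the Ptchd4 value of CC_l 2, and below them in the lower row.

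Of 95 list or marker genes with a region, 1 (1.05%) was called over both durations, Npas2, beside 0.726% of the 3170 regions. In H against C 2 (2.11%) were called, beside 1.80%, Npas2 and U2af1, the small subunit of the U2 auxiliary splicing factor, named here after its value was seen, at -1.09 ± 0.23 (limma, adjusted p = 0.021). No list gene was called higher in either fit. At any fold over both durations 9 of the 95 (9.47%) passed, all lower in obesity, beside 298 of the 3170 regions and 22.6% of all regions, so nothing is read from it about the lists. Beside Npas2 they were U2af1 (-0.85), Kmt2a (-0.73), Ddx46 (-0.55), Nanog (-0.55), Canx (-0.53), Tgfbr1 (-0.44), Ndufa4 (-0.38) and Hsp90b1 (-0.31), with adjusted p from 0.00607 at Canx to 0.0472 at Hsp90b1 in limma. These directions, and the list medians that follow, are on the rank scale, on which the 3170 regions had a median of -0.10 over both durations.
The median log2 fold change in H against C ran from -0.51 over the 4 clock genes to 0.07 at Rps29, the single ribosomal gene, over the 13 gene lists with a region. It was -0.44 over the 14 spliceosome genes, -0.35 over the 6 of the unfolded protein response, -0.33 over the 15 of oxidative phosphorylation and -0.28 over the 4 inflammatory genes, beside -0.12 over the 3170 regions and -0.05 over all regions tested. It was negative in 12 of these 13 lists.

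In the longer obesity, HH against CC_l, 0 of the 3170 regions passed in limma, and 9 with array weights, beside 2.69% of all regions. At an unadjusted p under 0.05 there were 103, beside 13.7% of all 33619 regions, and with a log2 fold change above 1 in size at an unadjusted p under 0.01 there were 10, beside 2.68%. Ttc21b, a subunit of retrograde intraflagellar transport, had the smallest p. It stood at 17.29 and 17.11 in CC_l and 15.96, 15.93 and 16.05 in HH, with a difference of -1.22 ± 0.19 (limma, adjusted p = 0.162), and the groups did not overlap. The older controls CCC (16.18 and 16.05) also lay below CC_l, at -1.08 ± 0.17 (limma, adjusted p = 0.471). In the short arm C (16.96, 17.22 and 16.27) and H (16.13, 15.83 and 16.52) overlapped. The difference at Ttc21b was 0.20 in the mean signal (limma, adjusted p = 0.745). Its maximum signal was 7.54 and 7.28 in CC_l and 7.19, 7.23 and 7.24 in HH. The test of whether the obesity effect differed between the durations called 0 of the 3170, with 47 at an unadjusted p under 0.05, beside 6% of all regions.

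After weight loss the number of calls depended on how libraries were weighted. HC against CC_s called 0 in limma, with 60 at an unadjusted p under 0.05, beside 12% of all 29699 regions, and 10 with the stricter unadjusted rule, beside 2.54%. The smallest p was at Gm12424, with 15.52, 15.57 and 15.25 in CC_s and 14.16, 14.01 and 14.01 in HC, where the last 2 are the floor, and a difference of -1.38 ± 0.28 (limma, adjusted p = 0.141). With array weights it was -1.24 at Gm12424 (limma, adjusted p = 0.00262), and when centred -0.43 (limma, adjusted p = 0.237). HHC (14.83, 15.01 and 15.16) and CCC (15.03 and 14.16) overlapped there, at 0.41 ± 0.48 (limma, adjusted p = 0.828), and the long minus the short effect was 1.79 ± 0.46 (limma, adjusted p = 1). HHC against CCC called 0, with 25 at an unadjusted p under 0.05, beside 6.14%, and 1 with the stricter rule, beside 0.706%.
With the same array weights, which weight libraries by their spread, limma called 36 regions in HC against CC_s, beside 6.57% of all regions, and 0 in HHC against CCC, beside 0%. It called 15 for weight loss over both durations, beside 3.94%, and 32 for the weight loss effect minus the obesity effect, beside 1.89%.
Over both durations 1 region was called with equal weights, that of Gm47727, a predicted gene (chr13:20826797-20834772), beside 0.942% of all 29312 regions, and 2 passed at any fold, beside 1.58%. Gm47727 stood at 17.18, 16.47 and 16.75 in CC_s and 15.99, 15.82 and 15.63 in HC, and at 16.87 and 16.55 in CCC and 15.70, 15.39 and 15.28 in HHC. All 6 weight loss values were below all 5 controls, at -1.11 ± 0.20 (limma, adjusted p = 0.023). The difference at Gm47727 was under the fold limit in the maximum signal (-0.74), the mean signal (-0.72) and with array weights (-0.94). Its obese values of 16.25, 16.14 and 16.46 in H overlapped with C (17.07, 16.88 and 16.26), while HH (14.69, 15.51 and 16.35) lay below CC_l (17.08 and 16.97). Without CC_s 3, HC 1, HC 2, CCC 1 or CCC 2 the number called was 0.
The test of the difference between the weight loss effect and the obesity effect, which share no library, called 0 of the 3170 regions, with 380 at an unadjusted p under 0.05, beside 12.7% of all 36666 regions and 0.139% of them called. At Npas2 this difference was 1.47 ± 0.38 (limma, adjusted p = 0.107) and at A630001G21Rik -1.26 ± 0.36 (limma, adjusted p = 0.14).

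The control groups gave the background of age and chow. Between CC_s and C, 2 of the 3170 regions passed the stricter unadjusted rule, beside 0.615% of all regions, and between CCC and CC_l 7 did, beside 0.982%. In the same arms HC against CC_s gave 10, HH against CC_l 10 and HHC against CCC 1.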

How the data were processed

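Adipocyte nuclei of 22 mice were profiled by ATAC-seq. Per the labels and the study's methods, the authors trimmed reads with Trim Galore 0.6.6, aligned them to GRCm38 with Bowtie2 2.4.4, used SAMtools 1.13 and bedtools 2.30, and called peaks per library with SEACR 1.3 (stringent, threshold 0.01). The deposited peak lists give the total and maximum signal (coverage) of each peak with no stated normalization, so depth is unknown. Here peaks were merged at an overlap of 1 bp, and a region's total signal was summed over its peaks. The 30083 strongest regions of each library took the mean log2 value of their rank, and others the floor. Groups were compared with limma 3.58.1 (trend, R 4.3.3) over all regions above the floor in as many libraries as the smaller group, or 5 in joint fits, with Benjamini-Hochberg adjustment, and a call needed a log2 fold change above 1 in size with an adjusted p under 0.05. The script was tested on simulated data. Animals were separate biological replicates.

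Members and gene lists were chosen with earlier results of these data known. Named were the 6 regions of highest signal, the 3 of smallest and of largest SD, and up to 4 called regions in each direction per fit or else that of smallest p. Also named were the 2 strongest genes of each list and 10 genes looked up, Adipoq and genes that the study's text names. Alternatives changed the scale, measure, filter, weights, block, width and libraries. A region that this rule names is not reported here.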

Additional observations from a re-analysis of the deposited data

Results flagged for a closer look

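The mitochondrial genome, which lies outside the regions compared, gave 1 peak in every library and a larger share of the signal in HC than in CC_s. The lowest share in HC was 1.03% of the library's total signal and the highest in CC_s 0.929%, so that the 3 HC libraries lay above the 3 CC_s libraries. C, the younger control, stood at 1.54%, 0.52% and 1.36% and H at 2.04%, 1.28% and 1.38%, so that HC 1 (1.16%) and HC 2 (1.03%) lay below 2 of the 3 C libraries and below all of H. In the long arm HHC 2 (1.18%) lay below CCC 2 (1.34%), so the groups overlapped, and the highest share of all libraries was 5.39% in HH 1. The region at Gm10222, most of whose sequence also occurs in the mitochondrial genome, stood at 22.88, 22.26 and 23.35 on the log2 scale in HC and at 22.38, 21.41 and 20.90 in CC_s, where the groups overlapped. As a share of the library's signal it was 0.207%, 0.182% and 0.813% in HC and 0.17%, 0.088% and 0.065% in CC_s, where they did not overlap. Across the libraries this share moved with that of the mitochondrial peak, as in HC 3 (0.813% and 4.39%) and CC_s 3 (0.065% and 0.36%), and the part of mitochondrial reads in the region's level was not tested.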

How the results depend on the processing

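The number of regions was 1521 with the 20000 strongest peaks of each library, 33 with 50% of the region covered, 8721 with no limit on width, and 3170 to 3511 without single libraries. With no limit on width the lists held 75 cytosolic ribosome, 71 oxidative phosphorylation, 29 proteasome, 37 spliceosome, 48 RNA polymerase II, 40 translation, 35 unfolded protein response, 36 adipocyte, 23 inflammatory, 36 lysosome, 30 TGF-beta and matrix, 22 clock, 26 immediate early and 32 chromatin genes. The range of library medians was 0.304 by rank and 0.422 when centred.

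H against C called 33 regions when centred, 16 with the maximum signal, 11 with the mean signal, 30 with no filter and 1 to 56 without single libraries. Obesity over both durations called 13 when centred, 9 with the maximum and 0 with the mean signal, and 20 to 33 without single libraries. Weight loss over both durations called 4 with the maximum signal, 3 with the mean signal, 0 with no filter, 15 with array weights, 2 without HC 3 and HHC 3, and 0 to 3 without single libraries. Array weights gave 36 in HC against CC_s, 9 in HH against CC_l and 32 for weight loss minus obesity. HC against CC_s gave 3 with all libraries of the duration, HH against CC_l 0 to 1 without single libraries, and weight loss minus obesity 1 when centred, 1 with the maximum signal, 1 with the mean signal and 0 to 3 without single libraries. The cause was not tested.

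Under the mean signal the log2 fold change of Npas2 was 0.18 in H against C and 0.078 over both durations, of AC130718.2 (Wac) 0.53, of Jmy 0.23 and 0.26, of Ttc21b 0.20, of Nedd1 -0.11, of Trio -0.033 and of AC127690.1 0.26. Same-numbered replicates did not pair, with correlations of their deviations from -0.15 to 0.20. With a replicate block the calls were 42 in H against C, 2 in HH against CC_l, 27 for obesity and 0 for weight loss over both durations. With unknown depth no counting interval can be given.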
